A study of Mus musculus with 12 samples.

Results

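The comparison described here is that of pancreatic islets from mice in which Sirt3 was deleted selectively in beta cells (knockout) against islets from wild type mice, both kept on a standard diet. It holds 6 of the 12 RNA sequencing libraries of the study, 3 of knockout islets (STD KO 1 to 3) and 3 of wild type islets (STD WT 1 to 3), chosen by the diet and genotype in their titles. All animals were male C57BL/6 mice labelled as 40 weeks old, and the standard diet had 6.2% fat and was given throughout. The remaining 6 libraries came from the same 2 genotypes after 36 weeks of high fat feeding, with fat giving 60% of the calories (HFD KO 1 to 3 and HFD WT 1 to 3). The standard food before that lasted 4 weeks in wild type and 5 to 6 weeks in knockout mice. The line that drives deletion in beta cells, and whether the wild type mice carried it, are not stated in the labels, so effects of the deletion and of the driver cannot be told apart. Whether each library stands for another animal is not stated, and p-values then measure the spread between these libraries alone.

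Islets are clusters of endocrine cells scattered through the pancreas. Their beta cells take up glucose, raise ATP through mitochondrial oxidation, close ATP-sensitive potassium channels, admit calcium and release insulin from granules by calcium-triggered exocytosis. SIRT3 is a deacetylase of the mitochondrial matrix that uses NAD and removes acetyl groups from enzymes of oxidation, the respiratory chain and antioxidant defence. It acts on proteins, and the values here are of mRNA.

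Total counts in the 6 libraries ran from 16419024 to 20579451, with 20504 to 22360 genes detected by at least 1 count. Levels are given as CPM, counts scaled to the total of each library. Sirt3 (chromosome 7, 140863666 to 140882309, minus strand, mm10) was measured at 9.57, 10.9 and 10.9 CPM in the wild type libraries and at 7.29, 6.07 and 6.69 CPM in the knockout libraries. The groups did not overlap, but the log2 fold change of −0.79 (SE 0.22) did not pass the threshold (edgeR adjusted p = 0.156). The count takes in all exons and every cell type of the islet, the deleted exons are not stated in the labels, and Ric8a and Psmd13 overlap the gene on the opposite strand. Beta cell markers were present in every library, led by Ins2. It stood at 182571 to 244711 CPM in wild type and 131878 to 197143 CPM in knockout libraries (log2 fold change −0.56, SE 0.30, edgeR adjusted p = 0.722). Gcg, the glucagon gene of alpha cells, stood at 24586 to 31825 CPM and 19007 to 24807 CPM (−0.48, SE 0.33, edgeR adjusted p = 0.896). Of the markers of other cells, the summed level of the macrophage and myeloid list was 320 to 357 CPM in wild type and 386 to 538 CPM in knockout libraries, with 0 of 24 members called. That of the alpha cell list was 27499 to 34936 CPM in wild type and 21402 to 27203 CPM in knockout libraries, with 0 of 16 called. Acinar markers of the exocrine pancreas ranged from 7513 to 38335 CPM in wild type and from 12507 to 37402 CPM in knockout libraries. No gene of these 3 lists found in the files was at 0 counts over the 6 libraries. The part of these cells in the results was not tested. In bulk islets, fewer cells of a type and less RNA per cell cannot be told apart.

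Of 16076 genes tested, 216 rose and 59 fell in knockout islets, which is 1.34% and 0.367% of the genes (1.71% together; edgeR's quasi-likelihood test, Benjamini-Hochberg adjusted p under 0.05). For all 275 the 2 groups did not overlap in CPM, against 17.7% of all genes tested, made up of 14.3% with every knockout library above every wild type library and 3.4% with every one below. These CPM carry no TMM scaling, which the test does use. The lactogen response, the islet program induced by prolactin and placental lactogen, was represented by a list of 18 genes. Of these 12 rose, and 204 genes outside the list rose. The list is short, so the 204 may hold further genes of that response. The increases were the larger changes. Their median log2 fold change was 2.05, and 75 exceeded 8-fold. The decreases had a median of −1.18, and 1 exceeded 8-fold. Of the genes that rose, 68 had a wild type mean under 1 CPM. Summed over the 216 genes, the level was 5156 to 6102 CPM in wild type and 18233 to 19482 CPM in knockout libraries. Summed over the 59, it was 2640 to 3059 CPM and 1242 to 1498 CPM. The genes were chosen by their difference in the same libraries, so the gaps between these sums follow from the choice. The 18 genes of the lactogen list alone summed to 2274 to 3245 CPM in wild type and 8276 to 8802 CPM in knockout libraries. Protein-coding genes made up 240 of the 275. On another scale, log2(FPKM + 0.1) tested with limma, 240 genes rose and 29 fell.

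Single libraries bore on many calls. Leaving out each of the 12 libraries in turn, all of which enter the estimate of the spread, 114 of the 216 increases and 14 of the 59 decreases passed in every one of these fits. The increases ended most often without STD WT 2 (92 of 216), the decreases most often without STD KO 3 (42 of 59). No gene of the 275 changed sign under any of 20 alternatives. The wild type library with the highest level was STD WT 3 in 119 of the 216 increases (55.1%), against 26.3% of all genes tested. The genes described next by function passed in all 12 of those fits, and the others are given together after them.

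**Figure D1:**
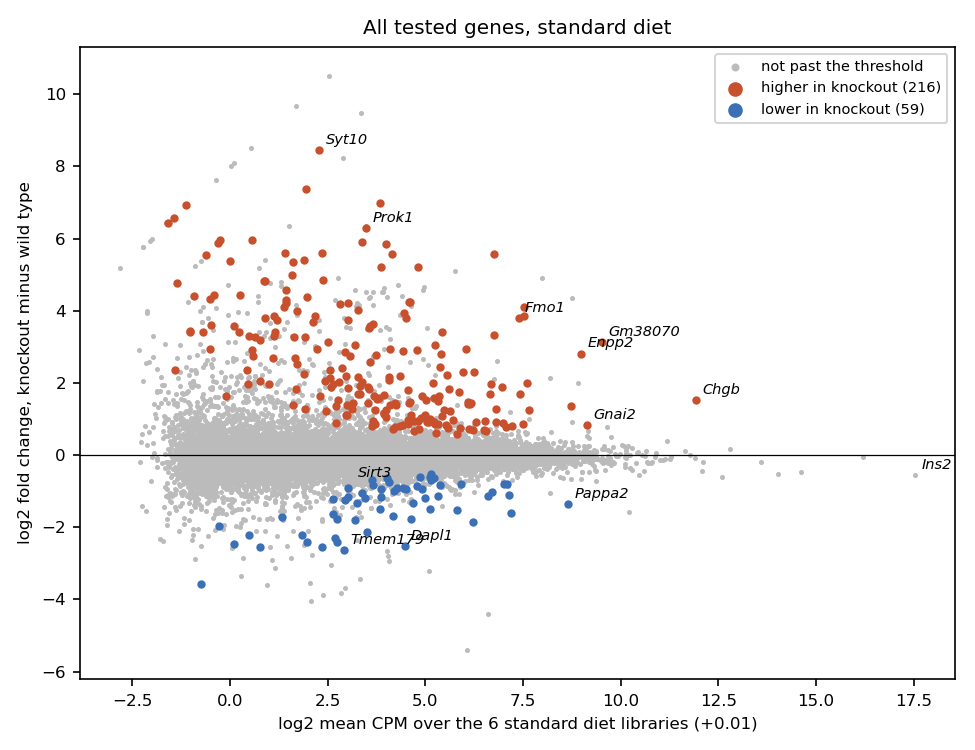
Each point is a gene of the standard diet comparison, with the log2 mean CPM of the 6 libraries on the x axis and the log2 fold change of knockout against wild type on the y axis. The 216 genes that rose (red) reach over 8 on the log2 scale and lie mostly at low to middle levels, and the 59 that fell (blue) stay above −4. Gene names mark a few genes, among them Ins2 and Sirt3, which did not pass the threshold.

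The largest increases were of genes close to silent in wild type islets, among them calcium sensors of exocytosis. Syt10, a synaptotagmin, a membrane protein that couples calcium to vesicle fusion, stood at 0, 0.0609 and 0 CPM in wild type and 10.4, 5.90 and 12.8 CPM in knockout libraries (chromosome 15, 89782393 to 89841860). This is 1 count over the wild type libraries against 514 over the knockout libraries, a ratio of 544 after scaling to library totals (95% counting interval 97.1 to 21515). Its fitted log2 fold change was 8.45 (SE 0.77, adjusted p = 0.000188). Rph3a, a Rab effector on secretory vesicles that binds calcium, stood at 0, 0.183 and 1.75 CPM in wild type and 36.2, 32.3 and 35.3 CPM in knockout libraries (log2 fold change 5.57, SE 0.84, adjusted p = 0.00683). The wild type values spread widely, yet the highest of them lay far under the lowest knockout value. These were the 2 genes that rose among 36 measured calcium sensors and priming factors of exocytosis, against 1.34% of all genes tested. None of the 36 fell. The median of that list was 0.03, against −0.02 over all genes tested. Mctp1, which has calcium-binding C2 domains and was chosen after its values were seen, stood at 5.05, 4.20 and 4.93 CPM against 41.6, 35.8 and 37.6 CPM (2.88, SE 0.16, adjusted p = 1.09e-05). Of the SNARE proteins, the fusion machinery on which such sensors act, 0 of 32 measured genes passed, and their median was −0.02.

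Lactbl1, a gene of the lactamase-like family, had 2 counts over the wild type and 405 over the knockout libraries, a ratio of 214 (95% counting interval 58.9 to 1775). Its levels were 0.0486, 0 and 0.0531 CPM against 7.74, 6.77 and 8.47 CPM. Malrd1, which carries MAM and LDL receptor class A domains, rose from 0.293 ± 0.212 to 20.4 ± 6.95 CPM (SD, n = 3), a log2 change of 5.91 (SE 0.67, adjusted p = 0.00101). Dnah8, an axonemal dynein heavy chain, reached the highest level of the 15 largest increases, with 2.77, 1.77 and 7.43 CPM in wild type and 265, 126 and 245 CPM in knockout libraries (5.56, SE 0.57, adjusted p = 0.000607). STD KO 2 was the lowest of the knockout libraries on this gene and still far above STD WT 3, the highest of the wild type libraries. Glo1 and 2 short or noncoding genes overlap Dnah8 on the opposite strand, and the strand setting of the counting is not given. Adarb2, an RNA-editing deaminase family member of the brain, rose by 4.84 (SE 0.74, adjusted p = 0.00626), Plppr5, a lipid phosphatase-related membrane protein, by 4.57 (SE 0.61, adjusted p = 0.00226), and Rerg, a small GTPase of the Ras family, by 4.25 (SE 0.41, adjusted p = 0.000361).

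**Figure D2:**
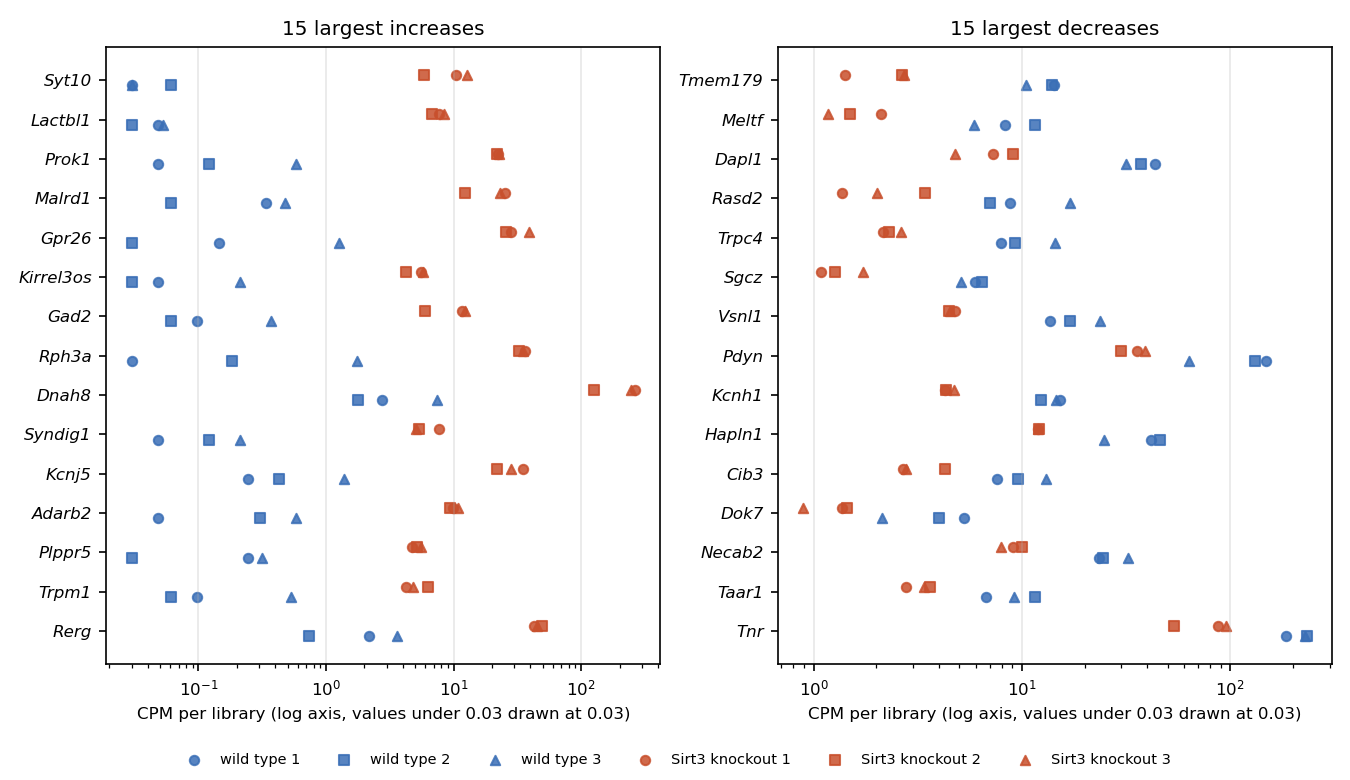
Levels per library (CPM, log axis) of the 15 largest increases and 15 largest decreases among named genes. Blue symbols are wild type and red symbols knockout libraries, with 1 shape per library number. Knockout libraries lie above all wild type libraries in the left panel and below them in the right panel, and the gaps are wider on the left.

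The stretches around an annotated start of a few of these genes are shown so that the increases and decreases can be set against sequence. They run from 250 bases before to 50 bases after the start of a promoter entry in RefSeq (GRCm38.p6). All are given 5′ to 3′ on the gene's strand. For Prok1, Cntn3 and Tmem179 that start lies inside the annotated span of the counted gene, which ends at 107239707, 102573101 and 112516747. Their stretches are therefore not the sequence before the whole annotated gene. Capitals mark TTCNNNGAA, the form of site that STAT factors bind, which reads alike on both strands. Syt10 (chr15:89841811-89842110, minus strand) and Lactbl1 (chr4:136622371-136622670, plus strand) had the largest increases. Prok1 (chr3:107238603-107238902, minus strand, from 1 of its 2 entries) and Cntn3 (chr6:102464618-102464917, minus strand) also rose, and Tmem179 (chr12:112511111-112511410, minus strand) had the largest decrease among the genes named by the rule.
Syt10: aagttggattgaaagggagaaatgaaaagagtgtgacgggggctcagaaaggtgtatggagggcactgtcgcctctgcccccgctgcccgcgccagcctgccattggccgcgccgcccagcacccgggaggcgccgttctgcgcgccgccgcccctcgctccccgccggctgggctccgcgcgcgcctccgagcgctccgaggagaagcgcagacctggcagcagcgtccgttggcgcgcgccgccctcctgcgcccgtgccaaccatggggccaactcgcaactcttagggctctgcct
Lactbl1: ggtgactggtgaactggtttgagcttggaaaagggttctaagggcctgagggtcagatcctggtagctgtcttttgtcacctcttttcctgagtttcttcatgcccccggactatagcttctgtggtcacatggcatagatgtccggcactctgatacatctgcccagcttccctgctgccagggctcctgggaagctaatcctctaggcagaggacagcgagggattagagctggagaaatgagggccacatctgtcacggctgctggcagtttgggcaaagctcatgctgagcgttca
Prok1: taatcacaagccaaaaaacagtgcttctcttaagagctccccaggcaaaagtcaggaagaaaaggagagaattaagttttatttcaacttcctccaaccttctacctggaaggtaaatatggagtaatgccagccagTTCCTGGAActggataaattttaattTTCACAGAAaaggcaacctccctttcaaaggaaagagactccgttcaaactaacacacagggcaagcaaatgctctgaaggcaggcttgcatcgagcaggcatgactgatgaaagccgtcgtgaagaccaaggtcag
Cntn3: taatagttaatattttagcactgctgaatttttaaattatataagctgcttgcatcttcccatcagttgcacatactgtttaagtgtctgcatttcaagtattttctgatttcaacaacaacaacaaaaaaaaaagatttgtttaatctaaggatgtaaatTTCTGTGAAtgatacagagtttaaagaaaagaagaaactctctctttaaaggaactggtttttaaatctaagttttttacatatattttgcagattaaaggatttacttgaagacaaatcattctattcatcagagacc
Tmem179: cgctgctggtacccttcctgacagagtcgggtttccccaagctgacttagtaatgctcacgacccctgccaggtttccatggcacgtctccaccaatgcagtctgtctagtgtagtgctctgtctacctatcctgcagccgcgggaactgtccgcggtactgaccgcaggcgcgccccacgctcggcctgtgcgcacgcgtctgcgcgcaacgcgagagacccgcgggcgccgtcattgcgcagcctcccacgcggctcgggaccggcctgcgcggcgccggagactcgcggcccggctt
The motif occurred 2 times in the Prok1 stretch, 1 time in that of Cntn3 and not in the other 3. Cntn3 was picked for printing because it holds the motif. Of the 2 Prok1 entries, 1 with the motif was taken. The hits in these stretches therefore follow from the choice and say nothing of risen genes in general. A promoter entry was found for 147 of the 216 genes that rose, and 19 of these (12.9%) held the motif in at least 1 entry, against 8.39% of the 11957 tested genes with an entry and 9.55% of all 27025 genes of the table. Of 43 genes that fell, 4 held it (9.3%). Besides Prok1 and Cntn3, the 19 included Esr1, Aldh9a1, Cyp2j12 and the lactogen response genes Cish, Prlr and Ivd. CACGTG, read alike on both strands and bound by basic helix-loop-helix factors, was also present in 19 of the 147 (12.9%), against 11.1% of tested genes. TGACGTCA, the full cyclic AMP response element, was present in 1 (0.68%), against 3.41%. Matches of CACGTG and TGACGTCA can overlap only at their ends, by the letters CA or TG. A match is a description of the letters and not a shown binding site.

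Among transmitters and secreted peptides, Gad2 and Prok1 rose. Gad2 makes the inhibitory transmitter GABA from glutamate and stood at 0.0972, 0.0609 and 0.371 CPM in wild type and 11.7, 5.96 and 12.4 CPM in knockout libraries (log2 fold change 5.60, SE 0.77, adjusted p = 0.00284). Prok1 encodes prokineticin 1, a secreted ligand of G protein-coupled receptors, and stood at 0.0486, 0.122 and 0.584 CPM against 22.3, 21.8 and 22.6 CPM (6.28, SE 0.57, adjusted p = 0.000188). The 3 knockout libraries were within 1 CPM of each other on Prok1, and STD WT 3 was the highest wild type library on both genes. A further gene, A630076J17Rik, overlaps Prok1 on the opposite strand. Syndig1, which shapes excitatory synapses, rose from 0.128 ± 0.082 to 6.01 ± 1.41 CPM (SD, n = 3), a log2 change of 5.36 (SE 0.42, adjusted p = 6.37e-05). Of 32 measured neuropeptides and secreted peptides 2 rose and 1 fell, and of 25 genes of GABA and glutamate signalling 2 rose and 0 fell. These counts stand beside the 1.71% of all genes tested that were called. The medians of these lists were −0.05 and 0.01.

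Receptors and adhesion proteins known from neurons rose as well. Gfra3, the co-receptor for the GDNF family ligand artemin, stood at 5.73, 5.73 and 10.9 CPM in wild type and 70.7, 70.3 and 64.4 CPM in knockout libraries (log2 fold change 3.05, SE 0.26, adjusted p = 0.000129). Ngfr, the low-affinity neurotrophin receptor, stood at 1.65, 1.52 and 1.80 CPM against 23, 17.8 and 25.7 CPM (3.59, SE 0.38, adjusted p = 0.000548). These were the 2 of 29 neurotrophin, GDNF and ErbB receptor genes that passed, against 1.71% of all genes tested. The median of the list was −0.27. Ngfr is also a marker of Schwann cells, and the summed level of the Schwann cell and neuron list, Ngfr included, was 294 to 341 CPM in wild type and 300.2 to 349.5 CPM in knockout libraries. That sum mixes opposite changes, as Etv1 on the same list fell from 73.7 to 46.5 CPM. Whether Schwann cells bear on the Ngfr values was not tested. In axon guidance and synaptic adhesion, 4 of 36 genes rose and none fell, against 1.34% and 0.367% of all genes tested. Slit1, a secreted guidance cue, rose by 3.98 (SE 0.40, adjusted p = 0.000367), and Cntn3, a contactin of the immunoglobulin family, rose from 3.16 ± 0.173 to 20.7 ± 3.12 CPM (SD, n = 3), a log2 change of 2.57 (SE 0.24, adjusted p = 0.000243). Kirrel3, a synaptic adhesion molecule, rose by 3.04 (SE 0.38, adjusted p = 0.00158) and Kirrel3os, transcribed antisense within it, by 5.61 (SE 0.61, adjusted p = 0.000574). Without a stated strand setting, reads of the latter 2 genes cannot be told apart.

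Ion channels and G protein signalling genes changed in both directions. Kcnj5, an inwardly rectifying potassium channel subunit opened by G proteins, stood at 0.243, 0.426 and 1.38 CPM in wild type and 35.2, 21.8 and 28.2 CPM in knockout libraries (log2 fold change 5.2, SE 0.52, adjusted p = 0.000378). Kcnk10, a two-pore domain background potassium channel, rose from 0.531 ± 0.328 to 5.72 ± 0.315 CPM (SD, n = 3), a log2 change of 3.27 (SE 0.45, adjusted p = 0.00262). Of 64 potassium channel subunits, 4 rose and 1 fell, with a median of −0.15, against 1.34% and 0.367% of all genes tested. None of 20 calcium channel and 13 sodium channel subunits passed, where 1.71% of all genes tested did. Trpc4, a calcium-permeable cation channel, fell from 10.5 ± 3.41 to 2.37 ± 0.232 CPM (−2.30, SE 0.37, adjusted p = 0.00718). The orphan receptor Gpr26 stood at 0.146, 0 and 1.27 CPM against 28.2, 25.7 and 39.3 CPM (5.84, SE 0.81, adjusted p = 0.0089). It lies within the annotated span of Fgfr2 on the opposite strand, and the strand setting of the counting is not given. The adhesion receptor Adgrd1 rose by 2.42 (SE 0.26, adjusted p = 0.000574). Pde7b, a phosphodiesterase that degrades cyclic AMP, stood at 5.30, 6.82 and 5.41 CPM against 33.0, 19.1 and 30.5 CPM (2.09, SE 0.25, adjusted p = 0.00106). It was 1 of 2 genes that rose among 55 cyclic AMP and G protein regulators, of which 1 fell, beside the same shares of all genes.

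The metabolic genes that changed came from several pathways, and the count on each list stands beside the 1.71% of all genes tested that were called. Ogdhl, a relative of the 2-oxoglutarate dehydrogenase subunit, stood at 64.7, 68.6 and 93.2 CPM in wild type and 274, 240 and 291 CPM in knockout libraries (log2 fold change 1.68, SE 0.20, adjusted p = 0.00101). It was the 1 of 36 genes of the tricarboxylic acid cycle and pyruvate entry that passed. Bcat1, the cytosolic transaminase of branched-chain amino acids, rose from 3.60 ± 1.61 to 30.8 ± 8.80 CPM (SD, n = 3), a log2 change of 2.95 (SE 0.37, adjusted p = 0.00185). It was the only call among the 50 genes listed for amino acid and one-carbon metabolism. The largest log2 fold change on that list, 4.77, was of a gene that was not called. Called genes of related function that are not on that list include Gcsh (0.94), Dglucy (0.81) and Ivd of the lactogen list. The calls of Gcsh and Dglucy ended in 6 and 8 of 12 fits without 1 library. Acss2, which makes acetyl-CoA from acetate in cytosol and nucleus, stood at 23.9, 21.6 and 21.8 CPM against 50.5, 44.3 and 43.5 CPM (0.91, SE 0.12, adjusted p = 0.00278). It was the 1 of 27 genes called on the list drawn up for SIRT3 substrates, but the acetyl-CoA synthetase that SIRT3 is known to act on is the mitochondrial one, Acss1. No other gene of the list passed, although the largest log2 fold change on it was 4.77, in a gene that was not called. Dhcr7, the last enzyme of cholesterol synthesis, rose by 0.91 (SE 0.13, adjusted p = 0.00347), 1 of 25 genes. Aldh9a1, an aldehyde dehydrogenase, rose from 84.1 ± 1.93 to 170.1 ± 8.38 CPM (0.88, SE 0.11, adjusted p = 0.00177), and the P450 gene Cyp2j12 had 2 counts over the wild type and 154 over the knockout libraries. Gstm2, a glutathione transferase, fell from 23.7 ± 5.28 to 13 ± 0.933 CPM (−1.0, SE 0.16, adjusted p = 0.00798). Slc40a1, the iron exporter ferroportin, rose by 1.74 (SE 0.23, adjusted p = 0.00199) and the urea transporter Slc14a2 by 1.84 (SE 0.27, adjusted p = 0.00402), 2 of the 5 of 277 solute carriers that rose. Fmo1, a flavin monooxygenase that oxidizes drugs and other nitrogen and sulfur compounds, was chosen after its values were seen. It stood at 16.3, 21.1 and 24.0 CPM in wild type and 342, 307 and 298 CPM in knockout libraries (3.80, SE 0.23, adjusted p = 1.09e-05), and on the per-length scale its mean FPKM was 14.0 and 216.

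No member passed in several lists that bear on mitochondria and on growth, against 1.71% of all genes tested. These were the 76 measured nuclear-encoded genes of oxidative phosphorylation, the 12 mitochondrially encoded mRNAs, 43 genes of fatty acid oxidation and ketone bodies, 27 of NAD synthesis and use, 21 mitochondrial chaperones and proteases, 39 mitochondrial carriers and 74 mitochondrial ribosomal proteins. Their medians lay between −0.07 and 0.04. The 40 cell cycle genes had a median of 0.20 with 34 above 0, the 30 of glycolysis and lactate 0.07 and the 31 p53 targets and cell death genes 0.03, also with no call. Called genes of related function stood outside these lists. Among them were Ehhadh, on the lactogen list, Pfkfb4 (1.10), Adpgk (0.73), Cradd (0.95) and Sfxn2 (−0.64). Pfkfb4, Adpgk, Cradd and Sfxn2 did not pass in every fit without 1 library. Simulated 2-fold changes in this comparison were recovered for 34 of 100 genes and 4-fold changes for 74 of 100, so single changes of about 2-fold would often be missed.

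Immune signalling genes that changed included GTPases and receptors, and the count on each list stands beside the 1.71% of all genes tested that were called. Gbp8, an interferon-inducible GTPase that also stands on the lactogen list, was at 2.72, 2.13 and 3.50 CPM in wild type and 39.1, 44.8 and 43.9 CPM in knockout libraries (log2 fold change 3.80, SE 0.30, adjusted p = 7.48e-05). Its neighbour in the family, Gbp11, rose from 0.321 ± 0.366 to 7.48 ± 1.17 CPM (SD, n = 3), a log2 change of 4.37 (SE 0.64, adjusted p = 0.00431). Gbp11 is annotated as a polymorphic pseudogene, not as protein coding. Gbp8 overlaps Gbp9 and Gbp4 on the same strand in the annotation, so the counting may have divided their reads, while Gbp11 overlaps no other gene with counts. These were the 2 of 17 guanylate-binding and related GTPases that passed, and 15 of the 17 lay above 0 (median 0.47). Of the 33 genes on the interferon response list, 1 passed, and 25 lay above 0 (median log2 fold change 0.23, against −0.02 over all genes tested). Il1rap, the shared subunit of interleukin 1 family receptors, stood at 6.27, 6.40 and 6.63 CPM against 23.3, 16.3 and 22.6 CPM (1.55, SE 0.20, adjusted p = 0.00212). Tnfrsf11b, the decoy receptor osteoprotegerin and also of the lactogen list, rose from 15.5 ± 3.31 to 78.8 ± 4.13 CPM (2.21, SE 0.24, adjusted p = 0.000574). Il1rap was 1 of 2 genes called among 88 chemokines, interleukins and their receptors. None of 21 genes of antigen presentation passed edgeR's test, and 17 lay above 0 (median 0.24). Marker lists of immune cells leaned the same way with no call. Of the macrophage and myeloid list 22 of 24 lay above 0 (median 0.39), and of the lymphocyte list 20 of 23 (median 0.31). The summed lymphocyte level varied widely and overlapped, at 903 to 3874 CPM in wild type and 1918 to 4596 CPM in knockout libraries. Some marker lists of other cells leaned down. Above 0 lay 2 of 16 alpha cell (median −0.37), 4 of 18 ductal (−0.38) and 8 of 31 beta cell identity genes (−0.20). The part of immune cells in these values was not tested.

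Growth factor signalling, transcription factors and secreted or sugar-modifying proteins gave further changes. Each list count here stands beside the 1.71% of all genes tested that were called. Id4, an inhibitor of basic helix-loop-helix factors and a target of BMP signalling, stood at 1.65, 2.19 and 2.12 CPM in wild type and 10.6, 8.10 and 10.4 CPM in knockout libraries (log2 fold change 2.14, SE 0.35, adjusted p = 0.00855). Fgf1, a fibroblast growth factor, fell from 19.7 ± 3.16 to 9.67 ± 1.90 CPM (SD, n = 3), a log2 change of −1.17 (SE 0.19, adjusted p = 0.00801). On the whole list of growth factors, BMP, Wnt and Notch ligands and targets, 3 of 67 rose and 1 fell. Esr1, the estrogen receptor alpha gene, rose from 0.793 ± 0.422 to 5.57 ± 0.208 CPM (2.68, SE 0.38, adjusted p = 0.00324), the 1 of 36 nuclear receptors that passed. Sox11, a transcription factor of developing neurons, rose by 4.44 (SE 0.69, adjusted p = 0.00615), the 1 of 73 homeobox, Sox and Fox factors. Enpp2, B3galnt1, B3galt1 and Akt1 were chosen after their values were seen. Enpp2, the secreted enzyme autotaxin that makes lysophosphatidic acid, stood at 105, 102 and 141 CPM against 963, 772 and 955 CPM (2.81, SE 0.23, adjusted p = 7.48e-05). Gm26684 overlaps its start on the opposite strand. The glycosyltransferases B3galnt1 and B3galt1, which add sugars to glycolipids and glycoproteins, rose by 2.31 (SE 0.15, adjusted p = 2.1e-05) and 2.78 (SE 0.30, adjusted p = 0.000564). In their family of 58 sialyl-, galactosyl- and N-acetylgalactosaminyltransferases, put together after values were seen, 4 genes rose and 3 fell, with a median of −0.06. The other two that rose were St3gal5 (0.74) and St6gal2, with 2 counts over the wild type and 53 over the knockout libraries, and those that fell were St3gal1 (−0.83), B3gnt9 (−0.82) and Galnt4 (−0.60). The calls of these 5, also chosen after their values were seen, ended in 5 to 10 of 12 fits without 1 library, each without STD WT 2, STD WT 3, STD KO 1, STD KO 2 or STD KO 3 in turn (up to 0.193), and B3gnt9, Galnt4 and St3gal5 overlap other annotated genes. Akt1, the kinase downstream of insulin and growth factor receptors, rose from 102 ± 11.8 to 197 ± 7.14 CPM (0.81, SE 0.12, adjusted p = 0.00432).

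**Figure D3:**
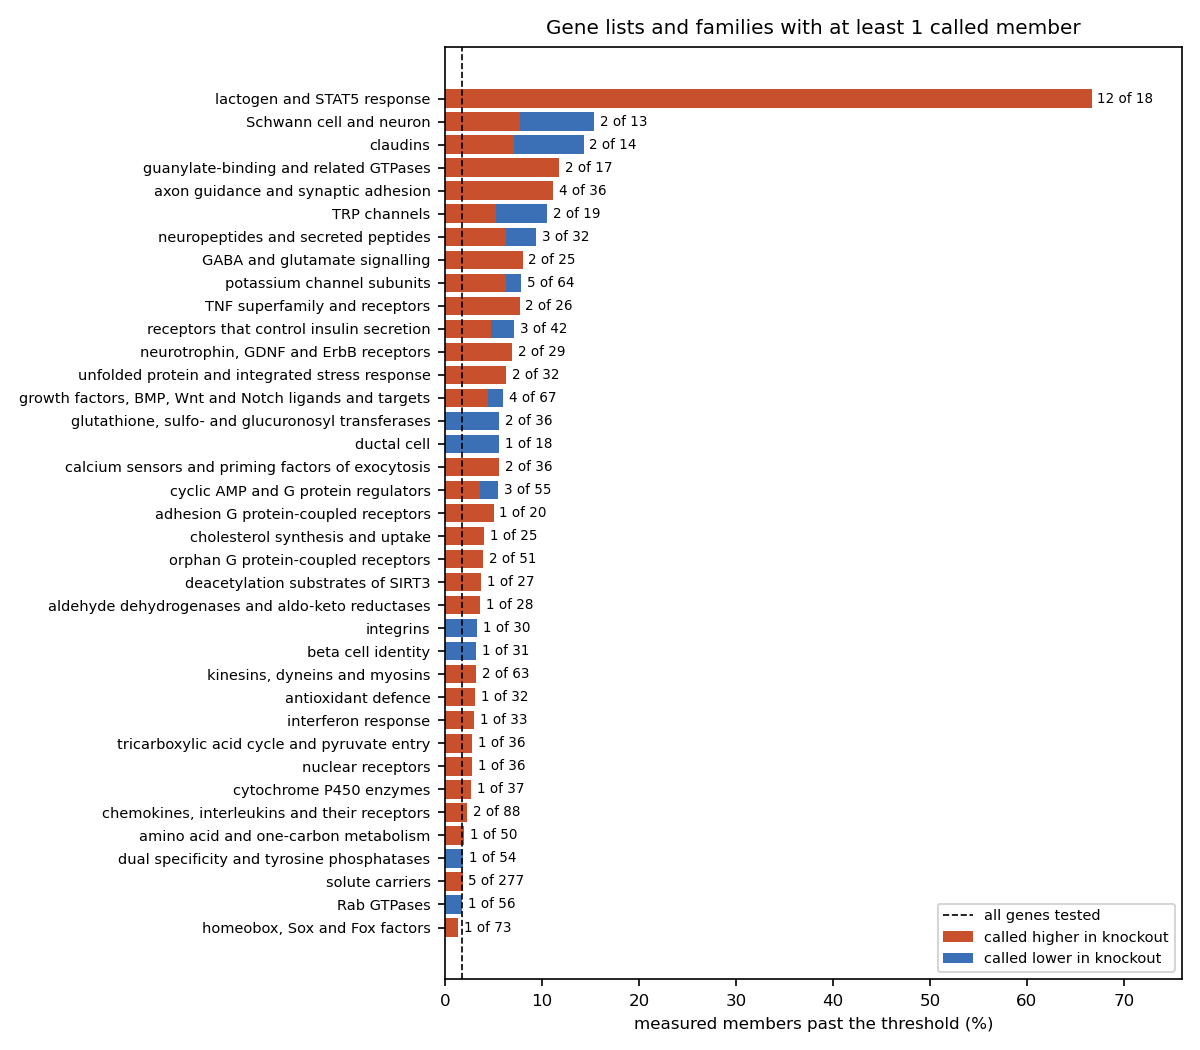
Share of measured members past the threshold in each gene list or family with at least 1 such member, with increases in red and decreases in blue. The dashed line is the 1.71% of all genes tested, and the labels give the counts, from 12 of 18 in the lactogen and STAT5 list to 1 of 73 in homeobox, Sox and Fox factors.

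The decreases were fewer and smaller, and few of them shared a list. Tmem179, a membrane protein of neurons, stood at 14.3, 13.9 and 10.5 CPM in wild type and 1.42, 2.66 and 2.73 CPM in knockout libraries (log2 fold change −2.63, SE 0.40, adjusted p = 0.00571; chromosome 12, 112500189 to 112516747). Meltf, melanotransferrin, an iron-binding surface protein, stood at 8.26, 11.5 and 5.89 CPM against 2.11, 1.5 and 1.17 CPM (−2.55, SE 0.32, adjusted p = 0.00179). Dapl1 stood at 43.4, 37.3 and 31.6 CPM against 7.23, 9.08 and 4.79 CPM (−2.52, SE 0.31, adjusted p = 0.00135). In each of these genes the lowest wild type value was over 2 times the highest knockout value. Vsnl1 and Necab2, calcium-binding proteins of neurons, fell from 18.2 ± 5.17 to 4.58 ± 0.175 CPM (SD, n = 3), a log2 change of −2.13 (SE 0.23, adjusted p = 0.000564) and from 26.8 ± 4.87 to 9.03 ± 1.02 CPM (−1.70, SE 0.24, adjusted p = 0.00345). Sgcz, a sarcoglycan of the dystrophin complex, fell by 2.22 on the log2 scale (SE 0.30, adjusted p = 0.00226). Hapln1, a link protein that ties hyaluronan to proteoglycans in the matrix, stood at 41.8, 45.8 and 24.9 CPM against 12, 12.1 and 11.9 CPM (−1.77, SE 0.23, adjusted p = 0.00205). Dusp4, a phosphatase that turns off MAP kinases, fell from 24.4 ± 2.05 to 14.3 ± 0.492 CPM (−0.91, SE 0.14, adjusted p = 0.00572). Fxyd6, a regulator of the sodium-potassium pump, and Aatk, a kinase of neurons, were chosen after their values were seen and fell by 1.11 (SE 0.17, adjusted p = 0.00472) and 0.93 (SE 0.14, adjusted p = 0.00431) on the log2 scale.

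A further group of named genes passed in the fit of all 12 libraries but not in every fit without 1 library. Among increases, this held for 25 of 71 named genes, and the calls ended most often without STD KO 1 (23), STD WT 2 or STD KO 2 (22 each), STD WT 1 (20), STD KO 3 (19) and STD WT 3 (11), and in 2 to 6 cases without each of the HFD libraries. The neuropeptide Y gene Npy had 2.19, 3.53 and 4.03 CPM in wild type and 15.7, 20.9 and 11.5 CPM in knockout libraries (log2 fold change 2.17). Gnai2, an inhibitory G protein alpha subunit, had 380, 361 and 411 CPM against 753, 734 and 745 CPM (0.82), and the gut lipid receptor Gpr119 had 21.3, 17.8 and 22 CPM against 37.6, 38.2 and 33.9 CPM (0.71). Both genes and Npy lost their calls in 4 of 12 fits, without STD WT 1, STD WT 2, STD KO 1 or STD KO 2, with adjusted p up to 0.0767 (Gnai2), 0.104 (Gpr119) and 0.077 (Npy). Txnrd2, the mitochondrial thioredoxin reductase, had 1.16 and lost its call without the same 4 libraries (up to 0.0953). It was the 1 called gene of 32 in antioxidant defence, against 1.71% of all genes tested. The tight junction gene Cldn8 had 45.3, 6.15 and 15.3 CPM against 322, 374 and 336 CPM (3.86), and its call ended without any 1 STD library but STD WT 1 (up to 0.107). Igfbp5, an IGF-binding protein, had 1.88 and lost its call without the same 5 libraries (up to 0.107). Trpm1 (4.30), Grm4 (3.44), Kcnk9 (2.69), Slc2a13 (1.52), Lrrtm2 (1.26), Edem1 (0.79), Derl3 (0.91), Usp18 (0.77), Bmp1 (0.92), Cxcl11 (3.61) and Tnfrsf1a (0.59) lost their calls in 4 to 11 fits, with adjusted p up to 0.191. Of these, Cxcl11 is annotated as a polymorphic pseudogene. Of the BMP antagonist Chrd (1.39) and the activin receptor gene Acvr1c (1.66), chosen after their values were seen, the calls were lost in 4 fits each (up to 0.0763 and 0.103).

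Of 29 named decreases 16 lost their calls in some fit, most often without STD KO 3 (15), STD WT 2 or STD KO 1 (14 each), STD WT 3 or STD KO 2 (11 each), HFD WT 3 (9) and STD WT 1 (8). Pdyn, the precursor of dynorphin opioids, had 149, 132 and 63.2 CPM in wild type and 35.6, 29.8 and 38.9 CPM in knockout libraries (log2 fold change −1.85), and its call ended without STD WT 2 or STD KO 2 (adjusted p up to 0.0629). Tnr, a glycoprotein of the matrix around neurons, was the most abundant per library of the 15 largest decreases, with 184.5, 233 and 229 CPM against 87.2, 53.6 and 95.7 CPM (−1.61), and its call ended without any 1 STD library but STD WT 1 (up to 0.102). Taar1, a trace amine receptor, had 6.75, 11.6 and 9.13 CPM against 2.79, 3.64 and 3.40 CPM (−1.62) and ended without STD WT 2, STD KO 1 or STD KO 3 (up to 0.0673). Ffar1, the fatty acid receptor of beta cells, had 163, 185 and 150 CPM against 113, 87.9 and 115 CPM (−0.79). It was the 1 of 31 beta cell identity genes that passed, against 1.71% of all genes tested. Its call ended in 9 fits (up to 0.221, without STD WT 2). Cldn4, a claudin of duct cells, had −1.14 and ended without STD WT 1, STD KO 1 or STD KO 3 (up to 0.0831), and Ugt2b34, a glucuronosyltransferase, had −1.51 and ended without STD KO 3 (0.0539). The summed level of the ductal list was 969 to 2904 CPM in wild type and 1306 to 1579 CPM in knockout libraries. Rasd2 (−2.40), Kcnh1 (−1.79), Cib3 (−1.77), Dok7 (−1.72), Itgb8 (−1.34), Rab37 (−0.81) and Etv1 (−0.80) lost their calls in 5 to 9 fits, with adjusted p up to 0.195.

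Genes that rose lay near one another more often than other genes had a risen gene nearby. Within 100000 bases, 26 pairs of called genes were found, of which 24 rose together, 1 fell together and 1, Hsbp1 and Necab2, moved in opposite directions. Of the pairs, 8 overlapped in the annotation, where unstranded counting could give 1 gene the reads of the other. Without overlapping pairs, 28 of the 216 genes that rose (13%) had a risen gene within that distance, against 492 of 15795 uncalled genes (3.11%). Outside the lactogen list the shares were 12.3% of 204 and 2.95%. These shares are a description, with no test. The 529 uncalled genes near a risen gene, overlapping ones included, had a median log2 fold change of 0.02, and 52.9% lay above 0, against 46.5% of all uncalled genes.

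Several pairs joined genes already described. Myo3a, an unconventional myosin of sensory cells, ends 3953 bases before Gad2 on the same strand of chromosome 2. Myo3a stood at 0.632, 0.426 and 0.902 CPM in wild type and 15.4, 9.72 and 15 CPM in knockout libraries (log2 fold change 4.19, SE 0.29, adjusted p = 2.36e-05). In both genes STD KO 2 was the lowest of the knockout libraries. Near Prok1 on chromosome 3, Cym, a gene for the milk-clotting protease chymosin, rose from 0.109 ± 0.139 to 3.55 ± 1.05 CPM (SD, n = 3), a log2 change of 4.82 (SE 0.84, adjusted p = 0.0119) at a distance of 11065 bases. Its call ended without STD WT 2 (adjusted p = 0.0803). Rtl10, a gene derived from a retrotransposon, lies 19828 bases from Txnrd2 on chromosome 16 and rose by 2.36 (SE 0.25, adjusted p = 0.000574). Nxph3, a neurexophilin, lies 54248 bases from Ngfr (1.36, SE 0.25, adjusted p = 0.0167) and lost its call without STD WT 1, STD KO 1 or STD KO 2 (up to 0.0766). Cpxm2, a carboxypeptidase-like gene, lies 38282 bases from Gpr26 (1.98, SE 0.39, adjusted p = 0.0231) and lost its call without each of the 6 STD libraries in turn (up to 0.104). Both Gpr26 and Cpxm2 lie within the annotated span of Fgfr2, Cpxm2 on its strand, so reads of the 3 genes may not be told apart. Fgfr2 itself had 22.7 CPM in wild type and 17.2 CPM in knockout libraries (−0.49, SE 0.86, adjusted p = 0.999). Txnrd2 likewise lost its call without STD WT 1, STD WT 2, STD KO 1 or STD KO 2. Cym, Rtl10, Nxph3 and Cpxm2 were chosen after their values were seen. Within 5000000 bases of Sirt3, 1 of 112 tested genes was called.

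**Figure D4:**
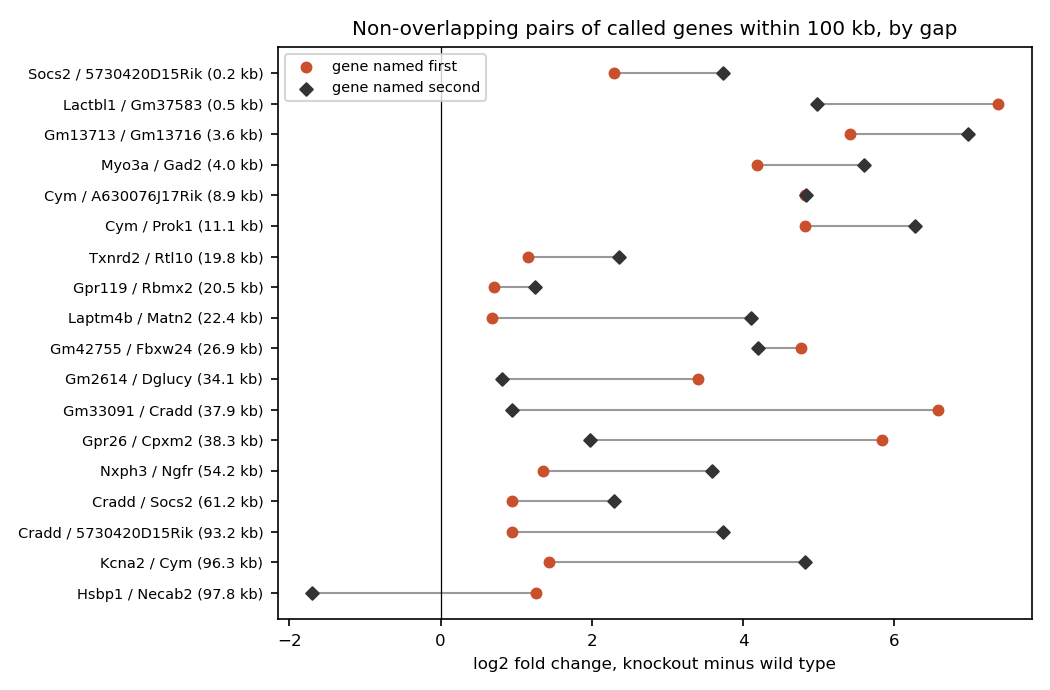
Log2 fold changes of both genes in each pair of called genes that lie within 100 kb and do not overlap, ordered by the gap between them. In 17 of the 18 pairs both genes rose, with values from 0.68 to 7.37, and Hsbp1 and Necab2 at the bottom moved in opposite directions.

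The same genotype difference was measured under the high fat diet in 6 other libraries, with no library shared by the 2 contrasts, although all 12 shared 1 estimate of the spread. There 627 genes rose and 562 fell, which is 3.9% and 3.5% of the genes tested (7.4% together). Without HFD WT 1, HFD WT 3, HFD KO 1 or HFD KO 2 these 1189 calls became 744, 524, 519 and 759, without HFD KO 3 they became 2899, and in a fit of the HFD libraries alone 543. Of the 216 standard diet increases, 202 (93.5%) rose there too, and of the 59 decreases 49 (83.1%) fell. As a share of the high fat calls, the 251 genes stand against 1189. Without STD WT 2, STD KO 1, STD KO 2 or STD KO 3 the 251 became 138, 150, 155 and 147. All 275 had the same sign. The change was larger under the high fat diet for 141 of the increases and 36 of the decreases. Gfra3 had a log2 fold change of 3.05 under the standard and 5.16 under the high fat diet, Gbp8 3.80 and 5.59, and Kcnj5 5.2 and 7.64. Syt10 had 8.45 and 8.04, and Ogdhl 1.68 and 1.04. A larger fold change need not mean a higher knockout level. Kcnj5 averaged 0.683 CPM in wild type and 28.4 CPM in knockout libraries under the standard diet. Under the high fat diet it averaged 0.055 and 12.1 CPM. Of the 216 increases, 68 had a standard diet wild type mean under 1 CPM, where the size of a fold change rests on few counts.

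The 24 genes that did not pass under the high fat diet included Dapl1, with −2.52 under the standard diet and −0.65 under the high fat diet (adjusted p = 0.196), Pdyn (−1.85 and −0.55, adjusted p = 0.288), Gnai2 (0.82 and 0.43, adjusted p = 0.0844) and Dhcr7 (0.91 and 0.46, adjusted p = 0.0525). Kcnh1, Taar1, Bmp1 and Acvr1c were also among them. The Pdyn call under the standard diet ended without STD WT 2 or STD KO 2 (up to 0.0629), and that of Gnai2 without STD WT 1, STD WT 2, STD KO 1 or STD KO 2 (up to 0.0767). A test of the difference between the diets called 0 genes with edgeR (smallest adjusted p = 0.157; 1271 genes at an unadjusted p under 0.05), and 31 with DESeq2, of which 10 were among the 275. For Dapl1 the adjusted p of that difference was 0.621. A change seen under 1 diet and not the other is therefore not shown to differ between them by edgeR.

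**Figure D5:**
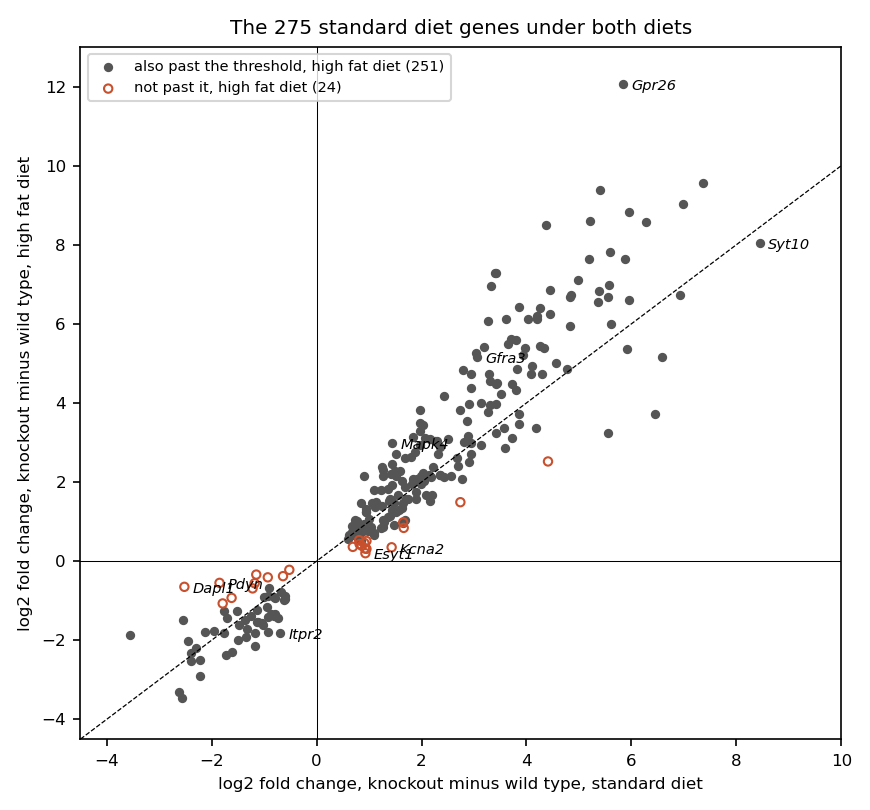
Log2 fold change of knockout against wild type under the standard diet (x axis) and the high fat diet (y axis) for the 275 genes called under the standard diet. All points lie in the quadrants of equal sign, 251 filled points passed the threshold under both diets, and the 24 open points did not pass under the high fat diet. The dashed line marks equal changes.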

How the data were processed

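RNA sequencing of islet RNA was deposited as 12 libraries in 4 groups of 3, grouped by their titles. The authors deposited read counts per gene, not normalized, and FPKM values for the same genes. Per the submitters' processing notes, TopHat2, Cufflinks and DESeq were used with mm10; the sources used here give no versions, counting tool, annotation release or strand setting. The deposited FPKM values equalled, in each of 257939 nonzero cases, the count divided by length and total (relative tolerance 0.0001). Each file listed 54532 genes; symbols were joined by identifier for 54409, and coordinates came from GENCODE M21 (GRCm38, the build named mm10). Replicates correlated with r from 0.96 to 0.978 across genes (log2 CPM, standard diet).

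Counts were tested with edgeR 4.0.16 in R 4.3.3 (quasi-likelihood test, TMM scaling, robust, 1 mean per group over all 12 libraries; filter of minimum count 10 and minimum total 15, leaving 16076 genes; threshold 0.05). CPM were scaled to the library total. In simulated data 2 of 110 calls were false. Those counts were drawn independently from the fitted spreads, without differences in cell content between libraries. The figure is therefore not a rate of false calls in the real libraries. Alternatives were DESeq2 1.42.0, its size factors, no filter, at least 1 CPM in 6 libraries, limma 3.58.1 on log2 FPKM plus 1 or 0.1 (mean of at least 0.5), leaving out each library, a replicate block, and a fit of only the compared groups. Deviations of same-numbered libraries under the standard diet correlated at 0.037, −0.158 and −0.237, so the numbers were not taken to pair them; under the high fat diet they correlated at 0.526, 0.456 and 0.397. Intervals of count ratios (95%, exact) cover counting error only. Lists (43) and families (32) were described by counts, of IDs sharing a symbol the one with most counts; motifs were searched on both strands.

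Sirt3, Ins2 and Gcg were always named, then, among called genes that averaged at least 2 CPM and whose groups did not overlap, the 15 largest changes each way outside the lactogen list and without predicted or small RNA genes, and up to 4 called members per list and 3 per family. Members and lists were chosen with earlier results of these data known.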

Additional observations from a re-analysis of the deposited data

How the results depend on the processing

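The 275 calls of the standard diet comparison became 484 with the DESeq2 Wald test (342 higher, 142 lower), and 135 with the replicate block on the compared groups alone (118 higher, 17 lower), of which 129 were among the 275; replicate numbers are not shown to pair these libraries. The lower calls became 34 and 29 with limma on log2 FPKM plus 1 and plus 0.1. The fits without 1 library gave 146 (without STD WT 2) to 296 calls, 127 to 227 higher and 19 to 69 lower. The high fat calls became 2033 with DESeq2, 543 in the compared groups alone and 1287 with the replicate block, and 519 to 2899 without 1 library. Calls shared by both diets became 404 with DESeq2, 124 with the replicate block, and 138 to 248 without 1 library. The difference between the diets called 31 genes with DESeq2 and 1 with no filter. The cause of these differences was not tested beyond the smaller number of libraries where 1 was left out. Of 100 called named genes, none changed sign, 47 did not pass with the replicate block, 16 in the compared groups alone, 14 and 15 with limma, and 10 with no filter. The filters left no value for St6gal2 in the fits of the compared groups alone, for it, Kcnk9 and Grm4 with the stricter filter, and for these, Sox11, Cxcl11 and Plppr5 with limma. Simulated 2-fold changes were recovered in 34 of 100 genes at this depth.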
